A study of Rattus norvegicus with 6 samples.

Results

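The natriuretic peptide system of the rat heart was described here through 7 genes, chosen by their names: the peptide genes Nppa and Nppb, the processing protease genes Corin and Furin, and the receptor genes Npr1, Npr2 and Npr3. Each of the 7 names matched 1 row of a table with 32883 rows that have a rat Ensembl identifier, called named here. All 7 passed the filter on low counts that left 13766 genes for testing. The ISO group held 3 male Sprague–Dawley rats labelled wild type, which were given ISO, read here as the beta-adrenergic agonist isoproterenol, under the skin at 1.5 mg/kg/day for 7 days. The saline group held 3 rats of the same strain, sex and genotype label, injected with saline over the same 7 days. All were 8 weeks old, and each library came from the heart of a separate rat, with no chamber named. The comparison asks what the hypertrophy and fibrosis model did to these transcripts.

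Natriuretic peptides are hormones that heart muscle cells release when their walls are stretched. Nppa encodes atrial natriuretic peptide (ANP), made mainly in the atria of the adult heart and again in ventricles under load, and Nppb encodes B-type natriuretic peptide (BNP). Corin, a membrane protease of cardiomyocytes, cuts the ANP precursor, and furin, a protease of the secretory pathway, is known to process the BNP precursor. Npr1 encodes guanylyl cyclase A, which binds both peptides and makes cyclic GMP, while Npr2 encodes guanylyl cyclase B, the receptor of C-type natriuretic peptide. Npr3 encodes the clearance receptor, which lacks the cyclase domain and takes the peptides up for breakdown.

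Nppb and Nppa are neighbours on chromosome 5 in the RefSeq annotation of the GRCr8 assembly, and the fold changes of their transcripts had opposite signs, so the start regions of both are shown. Each run is the + strand from 250 bases before to 50 bases after the start given by RefSeq, for Nppa at chr5:163711934-163712233 and for Nppb at chr5:163699758-163700057 of GRCr8. Capitals mark every match to GATAA, the core of sites read by GATA factors, on either strand.
Nppa: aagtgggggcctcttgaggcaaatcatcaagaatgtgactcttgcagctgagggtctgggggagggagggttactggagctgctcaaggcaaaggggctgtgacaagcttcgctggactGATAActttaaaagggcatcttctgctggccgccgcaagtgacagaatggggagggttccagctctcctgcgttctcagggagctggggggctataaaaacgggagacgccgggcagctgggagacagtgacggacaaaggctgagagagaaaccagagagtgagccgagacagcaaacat
Nppb: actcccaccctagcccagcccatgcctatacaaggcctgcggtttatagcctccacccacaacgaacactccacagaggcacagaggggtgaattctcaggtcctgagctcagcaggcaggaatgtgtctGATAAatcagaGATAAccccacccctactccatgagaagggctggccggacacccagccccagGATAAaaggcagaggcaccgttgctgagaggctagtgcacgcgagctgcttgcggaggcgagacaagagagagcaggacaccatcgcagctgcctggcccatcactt

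GATAA occurred at 1 place in the Nppa window, starting 131 bases before the start, and at 3 places in the Nppb window, at 120, 109 and 57 bases. Of 27457 rat promoters of this length, 26.1% held at least 1 match. CATTCC, the MCAT element bound by TEAD factors, matched 1 time for Nppb, 131 bases before the start, and not for Nppa, with a match in 13.9% of promoters. AAGTG, a core of NK2 sites, lay 250 and 95 bases before the Nppa start (46.0% of promoters), and the nearer match overlapped a CANNTG E-box at 96 bases (71.6% of promoters). Nppa held further E-boxes at 206 and 17 bases before the start and TGACG, part of the site of CREB factors, at 3 bases (22.0%). In the Nppb window AAGTG and CANNTG each matched 1 time, both after the start. TATAA lay 39 bases before the Nppa start on the printed strand (26.1% of promoters). The Nppb match, 207 bases before the start, was on the other strand, where the printed run reads ttata. All motifs were searched on both strands, and a match is only a run of letters. The pattern searched for the CArG box, the site of serum response factor, matched in neither window and in 1.64% of promoters. A site that departs from that pattern would not be counted, so a variant CArG box may be present. The AP-1 letters TGANTCA were in neither window (7.33%). Promoters were found for 5 of the 7 genes.

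The 6 libraries held 15109750 to 16260917 counts on named genes in ISO and 14712798 to 17070878 in saline, so that a floor of 3 reads lay between 0.176 and 0.204 CPM, the counts relative to library size. CPM are scaled by trimmed mean of M values (TMM) and are not per gene length, so they are compared within a gene. ISO replicate 1 held far more RNA of 5 atrial genes than any other library, as given with Npr3, and ISO replicate 3 had the highest summed level of 9 activated fibroblast markers, at 3783 CPM against 723 to 971 CPM in the other ISO libraries. Heart muscle markers were abundant in every library, with a summed level of 11 genes from 38020 to 56928 CPM in ISO and 55034 to 67459 CPM in saline. In bulk tissue, fewer cells of a type and less RNA per cell cannot be told apart.

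Of the 7 genes, 1 was higher in ISO hearts by edgeR at an adjusted p under 0.05, Nppa, and none was lower. Over all tested genes the same call was made for 2.97%, and for 1.47% in the higher direction. DESeq2 called 2 of the 7, Nppa and Furin, where it called 10.6% of all genes with an adjusted p. The thresholds of the series description (a fold change beyond 0.5 either way on the log2 scale and p under 0.05, unadjusted), set on the edgeR fit, also took 2 of the 7, Nppa and Nppb, where it took 13.2% of all genes. At an unadjusted edgeR p under 0.05 stood 5 of the 7, where 22.9% of all genes did. The ISO and saline libraries did not overlap for 6 of the 7, higher in ISO for 3 and lower for 3, where they did not overlap for 28.8% of all genes. The median log2 fold change of the 7 was 0.24 and that of all tested genes 0.02.

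**Figure D1:**
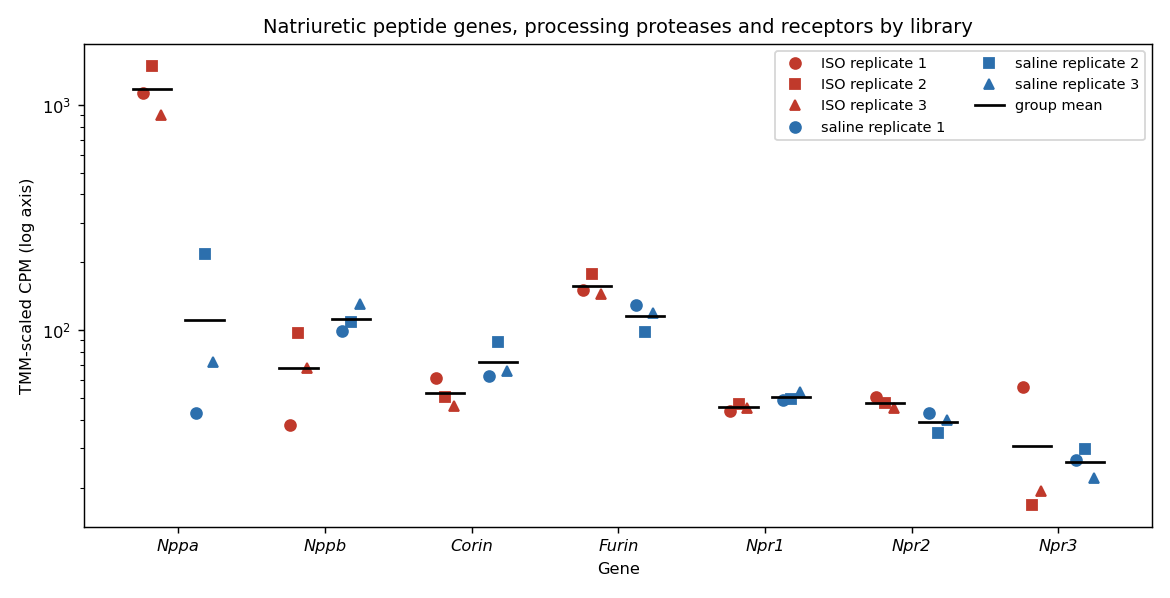
TMM-scaled CPM of the 7 genes (log axis) in each library, ISO in red left of saline in blue, with a black line at each group mean (3 libraries per group). The 3 ISO libraries sit far above saline for Nppa, at 901 to 1486 CPM, and ISO replicate 1 stands alone for Npr3, at 56.1 CPM.

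Nppa (ENSRNOG00000008176) had 1125, 1486 and 901 CPM in ISO replicates 1 to 3, against 42.8, 217 and 72.2 CPM in saline replicates 1 to 3. All ISO libraries were high, and the lowest of them stood 4.15-fold above the highest saline library. The group means were 1170.3 ± 295 CPM in ISO and 111 ± 93.2 CPM in saline (SD, n = 3 each), and the log2 fold change was 3.40 ± 0.56 (SE; adjusted p = 0.0244 by edgeR). Of 13766 genes, 22 had a higher log2 fold change, and 9 of these were called. Nppa took 0.119%, 0.146% and 0.0964% of all named counts in ISO, and 0.00428%, 0.0203% and 0.00689% in saline.

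The spread of Nppa lay mostly among the saline hearts. The highest ISO library exceeded the lowest by 1.65-fold, whereas the highest saline library exceeded the lowest by 5.06-fold. The saline SD of log2 CPM was 1.19, larger than that of 98.6% of tested genes, and the ISO SD was 0.36, larger than that of 74.2%. Saline replicate 2, the library with the most Nppa in its group, also had the most RNA of 7 erythroid genes in the study, at 10816 CPM, against 1610 to 5077 CPM in ISO and 4342 and 5182 CPM in the other saline libraries, and the largest mitochondrial share, at 29.2% of counts. Their part in the result was not tested. Without saline replicate 2 the log2 fold change of Nppa was 4.34 (edgeR adjusted p = 0.0184). Leaving out saline replicate 1 gave 3.01 (adjusted p = 0.068 by edgeR), leaving out saline replicate 3 gave 3.17 (0.121) and leaving out ISO replicate 1 gave 3.42 (0.0749), each in the same direction and no longer called.

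Nppb (ENSRNOG00000008141) had 37.8, 97.1 and 67.9 CPM in ISO replicates 1 to 3, against 99.5, 108 and 130 CPM in saline. All ISO libraries were below all saline libraries, but ISO replicate 2 reached nearly to the lowest saline value. Nppb averaged 67.6 ± 29.7 CPM in ISO hearts and 113 ± 15.6 CPM in saline hearts (SD, n = 3 each). The log2 fold change of −0.74 was not called (SE 0.29, edgeR adjusted p = 0.186). Here the spread was among the ISO hearts, with an SD of log2 CPM of 0.69 in ISO, larger than that of 91.9% of tested genes, and of 0.20 in saline. Leaving out ISO replicate 2 gave −1.09 and a call (edgeR adjusted p = 0.0498), and leaving out ISO replicate 1 gave −0.45 (0.311).

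The neighbouring peptide genes were compared within each library, where scaling cancels. The count ratio of Nppa to Nppb was 29.8, 15.3 and 13.3 in ISO replicates 1 to 3, against 0.431, 2.004 and 0.556 in saline replicates 1 to 3. The lowest ratio in ISO lay well above the highest in saline, and since counts are not per gene length the ratio is compared between hearts only. On the log2 scale the mean ratio was 4.19 ± 0.62 in ISO and −0.35 ± 1.19 in saline (SD, n = 3 each), a difference of 4.54. The exact two-sided permutation test gave p = 0.1, the smallest that 3 against 3 libraries can give, and 0.2 after Benjamini-Hochberg adjustment over the 4 ratios examined. Without ISO replicate 1 the difference was 4.19.

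**Figure D2:**
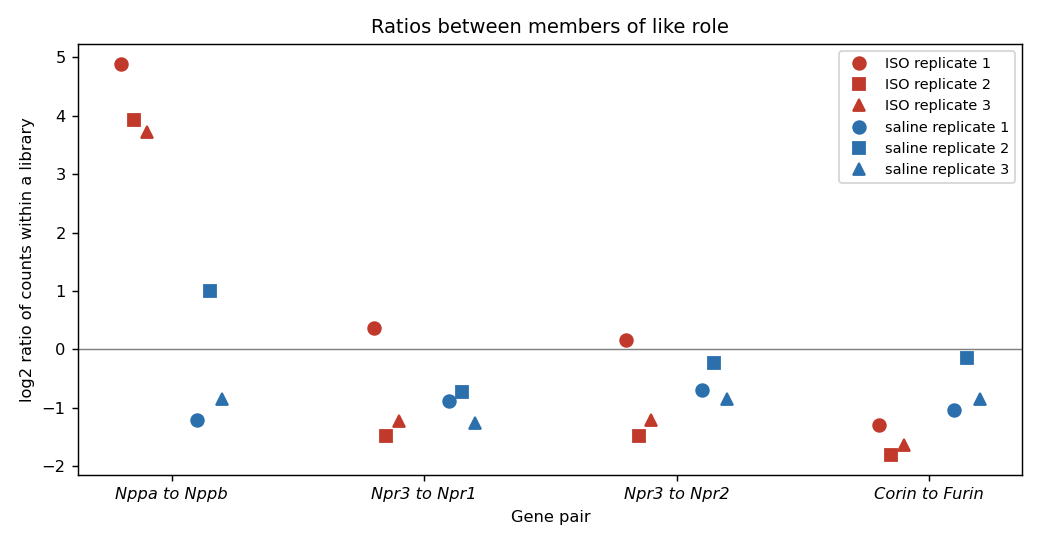
Log2 ratio of counts within each library for the 4 gene pairs, ISO in red left of saline in blue, 1 point per library. Nppa to Nppb separates the groups (3.73 to 4.90 in ISO, −1.22 to 1.00 in saline), and both Npr3 ratios are highest in ISO replicate 1.

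The fold changes of the 2 protease genes had opposite signs, and neither was called by edgeR. Corin (ENSRNOG00000002302) had 61.2, 50.3 and 46.0 CPM in ISO replicates 1 to 3, against 62.4, 88.7 and 66.1 CPM in saline replicates 1 to 3. ISO replicate 1 nearly met saline replicate 1, and the groups overlapped without TMM scaling, where ISO replicate 1 had 64.7 CPM. The means were 52.5 ± 7.85 CPM in ISO and 72.4 ± 14.2 CPM in saline, for a log2 fold change of −0.46 ± 0.17 (SE; adjusted p = 0.149 by edgeR).

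Furin (ENSRNOG00000011352) had 151, 177 and 144 CPM in ISO replicates 1 to 3, against 129, 98.4 and 120 CPM in saline replicates 1 to 3. All ISO libraries were above all saline libraries. The means were 157 ± 17.4 CPM in ISO and 116 ± 15.7 CPM in saline, for a log2 fold change of 0.45 ± 0.14 (SE; adjusted p = 0.108 by edgeR). DESeq2 called it at 0.44 (adjusted p = 0.0381).

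The count ratio of Corin to Furin was 0.405, 0.284 and 0.319 in ISO replicates 1 to 3, against 0.484, 0.901 and 0.554 in saline. The groups did not overlap, and the log2 ratio was lower in ISO by a difference of −0.91 (exact two-sided permutation p = 0.1, the smallest possible, and 0.2 adjusted over 4 ratios). The mean log2 ratio was −1.59 ± 0.26 in ISO and −0.68 ± 0.47 in saline (SD, n = 3 each).

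Neither of the 2 cyclase receptor genes was called. Npr1 (ENSRNOG00000014684) had 43.9, 47.0 and 45.3 CPM in ISO replicates 1 to 3, against 48.8, 49.7 and 53.1 CPM in saline replicates 1 to 3. Its ISO SD of log2 CPM, 0.05, was larger than that of 5.39% of tested genes. The log2 fold change was −0.16 (SE 0.09, edgeR adjusted p = 0.362), and without scaling it was −0.05 and the groups overlapped.

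Npr2 (ENSRNOG00000015991) had 50.5, 47.3 and 44.9 CPM in ISO replicates 1 to 3, against 42.9, 35.0 and 39.7 CPM in saline. The ISO libraries were all higher than the saline libraries. The SD of log2 CPM was 0.08 in ISO and 0.15 in saline, larger than that of 13.6% and 39.1% of tested genes. Npr2 averaged 47.6 ± 2.79 CPM in ISO hearts and 39.2 ± 4.004 CPM in saline hearts (SD, n = 3 each). The log2 fold change of 0.28 was not called (SE 0.11, edgeR adjusted p = 0.19).

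Npr3 (ENSRNOG00000019184) had 56.1, 16.8 and 19.4 CPM in ISO replicates 1 to 3, against 26.4, 29.8 and 22.0 CPM in saline replicates 1 to 3. ISO replicate 1 was the highest of all 6 libraries and the other ISO libraries were the lowest. The group means were 30.8 ± 22.0 CPM in ISO and 26.1 ± 3.93 CPM in saline (SD, n = 3 each). The log2 fold change was 0.24 (SE 0.42, edgeR adjusted p = 0.781). Without ISO replicate 1 it turned to −0.54 (SE 0.18, edgeR adjusted p = 0.209), which was not called, and both remaining ISO libraries lay below every saline library. The ISO SD of log2 CPM was 0.95, larger than that of 96.5% of tested genes.

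**Figure D3:**
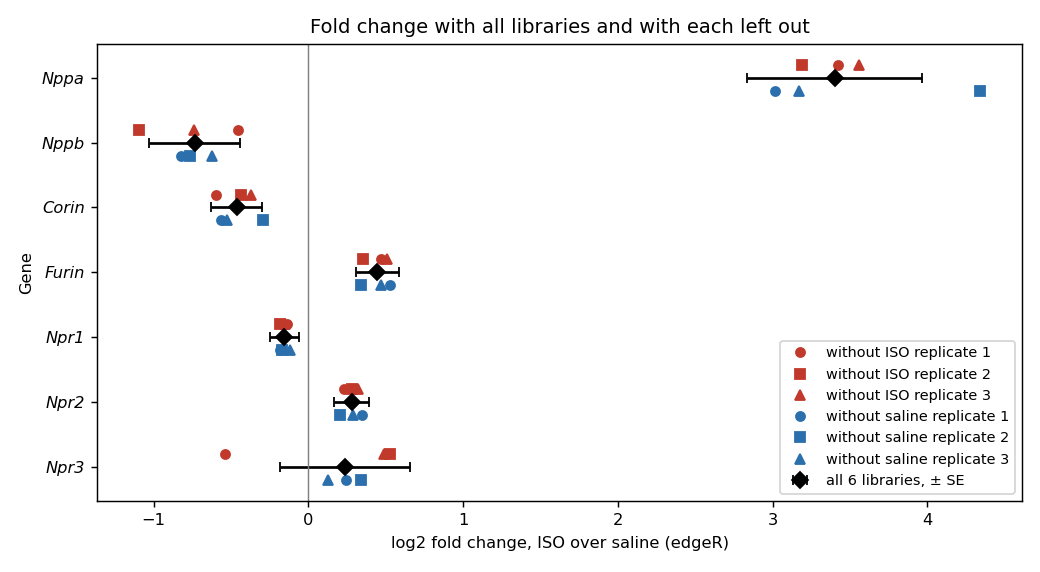
Log2 fold change of ISO over saline for each gene, with all 6 libraries (black diamond, bar ± SE) and with each library left out (red without an ISO library, blue without a saline library). Nppa stays between 3.01 and 4.34, and Npr3 is the gene that crosses 0, at −0.54 without ISO replicate 1.

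Relative to both cyclase receptors, Npr3 was highest in ISO replicate 1. The count ratio of Npr3 to Npr1 was 1.28, 0.358 and 0.428 in ISO replicates 1 to 3, against 0.542, 0.600 and 0.414 in saline, a log2 difference of 0.18 (exact permutation p = 0.9), and −0.39 without ISO replicate 1 (exact permutation p = 0.3). The ratio of Npr3 to Npr2 was 1.11, 0.355 and 0.432 in ISO, against 0.616, 0.853 and 0.554 in saline, a log2 difference of −0.26 (exact permutation p = 0.7). Without ISO replicate 1 this difference was −0.76 with no overlap (exact permutation p = 0.1, the smallest that 2 against 3 can give), and without ISO replicate 2 it was 0.06. All 4 ratios had an adjusted p of 0.2 or 0.9.

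Of 18 atrial cardiomyocyte markers, 10 were highest in ISO replicate 1, and 5 of these exceeded every other library at least 10-fold there. The other markers were highest in ISO replicate 2 (4), ISO replicate 3 (1), saline replicate 2 (2) and saline replicate 3 (1). The share of all tested genes highest in ISO replicate 1 was not counted. Myl7, the atrial myosin light chain gene, had 1128, 17 and 0 counts in ISO replicates 1 to 3, against 9, 25 and 17 in saline. Myl4 had 874, 47 and 30 counts in ISO and 24, 21 and 31 in saline, and Sln, the sarcolipin gene, had 670, 0 and 5 in ISO and 0, 4 and 13 in saline. Bmp10 and Mybphl followed, with 192 and 157 counts in ISO replicate 1 and at most 2 in any other library. The summed level of the list was 1997, 1818 and 1580.0 CPM in ISO replicates 1 to 3 and 1286, 1500.3 and 1249 CPM in saline, most of it Pam, which ranged from 942 to 1493 CPM, followed by Dkk3, from 87.3 to 131 CPM. Of the 5 genes, counts were 0 for Sln in ISO replicate 2 and saline replicate 1, for Myl7 in ISO replicate 3, for Bmp10 in saline replicates 1 and 3, and for Mybphl in saline replicate 2.

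Beside 1128, 17 and 0 counts of Myl7, ISO replicates 1 to 3 had 1125, 1486 and 901 CPM of Nppa, and the part of atrial RNA in these levels was not tested. Npr3 and the 5 atrial markers were all highest in ISO replicate 1. The 5 were named because 1 library held at least 10-fold more than any other, so a single peak follows from that choice. The part of atrial RNA in the Npr3 level was not tested. Of 11 endocardial markers, 8 were also highest in ISO replicate 1, again without a count over all tested genes. Hmcn1, which encodes hemicentin, had 100.4, 28.9 and 46.4 CPM in ISO, against 48.1, 62.6 and 54.7 CPM in saline. The summed endocardial level was 712, 413 and 2236 CPM in ISO and 224, 217 and 196 CPM in saline, with Postn the larger part in ISO replicate 3. None of the 11 was at 0 in any library.

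**Figure D4:**
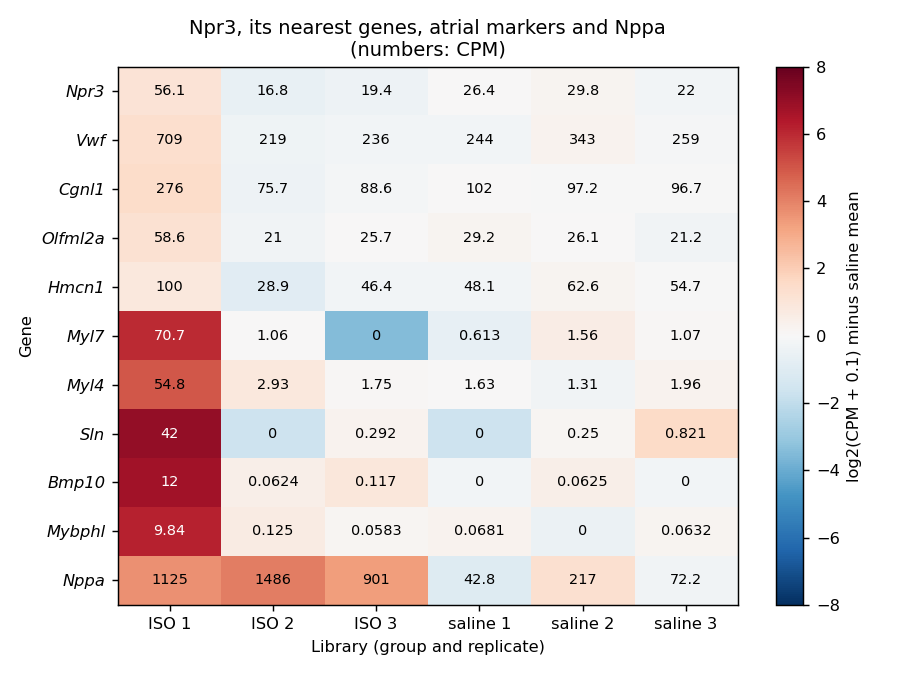
CPM (numbers) of Npr3, the 4 genes nearest to it, 5 atrial markers and Nppa in each library, coloured by log2(CPM + 0.1) minus the saline mean, ISO columns left of saline. The 5 atrial markers, named for standing at least 10-fold higher in 1 library, and Npr3 peak in ISO replicate 1, whereas Nppa is high in all 3 ISO libraries.

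The genes nearest in pattern were found by the root mean square difference of centred log2 CPM over the 6 libraries, among the 8575 other genes that averaged 10 CPM or more. For Nppa the nearest were Klhl40 at 0.85, Mff at 0.96 and Akip1 at 1.04, against 1.99 for a flat profile. Klhl40, a muscle Kelch protein gene, had 50.2, 51.0 and 34.2 CPM in ISO replicates 1 to 3, against 6.88, 6.94 and 6.44 CPM in saline. For Nppb they were Bdnf at 0.20 and Paqr9, LOC100359687 and Gja1 at 0.24 each, against 0.58 for a flat profile. Gja1, the connexin 43 gene, had 276, 457 and 361 CPM in ISO, against 643, 703 and 609 CPM in saline. For Npr3 they were Vwf at 0.16, Cgnl1 at 0.20, Olfml2a at 0.21 and Hmcn1 at 0.21, against 0.56. Vwf, the von Willebrand factor gene of endothelium, had 709, 219 and 236 CPM in ISO, against 244, 343 and 259 CPM in saline. It was picked for nearness to Npr3 over these same libraries, so a shared peak in ISO replicate 1 follows from that choice.

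Genes that accompany the peptides outside the 7 were not called by edgeR. Of 18 genes of peptide storage, processing and breakdown, 11 were tested and none was called by edgeR, with a median log2 fold change of 0.02, against 0.02 over all genes. Unadjusted, 6 of the 11 had an edgeR p under 0.05, where 22.9% of all tested genes did. DESeq2 called 3, against 10.6% of all genes with an adjusted p, and voom 0. Pam, which encodes a peptide-amidating enzyme of atrial granules, had 1447, 1493 and 1313 CPM in ISO replicates 1 to 3, against 999, 1217 and 942 CPM in saline (log2 fold change 0.43, edgeR adjusted p = 0.132). Lrp1, a scavenger receptor gene, stood at 0.54 (SE 0.12, edgeR adjusted p = 0.0509). It was called without scaling, at 0.65 (edgeR adjusted p = 0.0334), and with a filter of 1 CPM in 3 libraries (edgeR adjusted p = 0.0492). DESeq2 called both Lrp1 (adjusted p = 0.00045) and Pam (adjusted p = 0.0264). Chosen after their values were seen, Pcsk6, whose protease is known to activate corin, had 142 ± 9.20 CPM in ISO and 176 ± 16.9 CPM in saline (−0.31, edgeR adjusted p = 0.16), and Mme, the neprilysin gene whose product degrades ANP, had 22, 14 and 44 counts in ISO and 28, 53 and 44 in saline (−0.73, edgeR adjusted p = 0.36). Nppc, the C-type peptide gene, did not pass the filter, with 37, 5 and 11 counts in ISO replicates 1 to 3, against 4, 3 and 0 in saline.

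The list of cyclic GMP signalling genes also held genes not downstream of the receptors, among them Nos3, Gucy1a1 and Gucy1b1. Of 29 genes found, 22 were tested and edgeR called none, with a median of −0.03. Prkg1 was listed but not found. Unadjusted, 7 of the 22 had an edgeR p under 0.05, where 22.9% of all tested genes did. DESeq2 called 1, against 10.6% of all genes with an adjusted p, and voom 0. Nos3, the endothelial nitric oxide synthase gene, stood at −0.07 (SE 0.13, edgeR adjusted p = 0.782), and its sign changed without scaling (0.03) and without saline replicate 3 (0.04). Ppp1r12a, a myosin phosphatase subunit gene, stood at −0.34 (SE 0.13, edgeR adjusted p = 0.164). Named after its values were seen, Pde5a, the cyclic GMP phosphodiesterase gene, had 6.07 ± 0.496 CPM in ISO and 6.09 ± 0.995 CPM in saline. The exporter genes Abcc5 and Abcc4, also named after the fact, stood at 0.42 and −0.47 (edgeR adjusted p = 0.0883 and 0.0918).

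Of 33 genes known to regulate Nppa or Nppb, 31 were tested, 3 were lower in ISO and none higher, with a median of −0.07. Over all 13766 tested genes, edgeR called 206 lower and 203 higher. DESeq2 called 6 of the list, against 10.6% of all genes with an adjusted p. Voom called 3, against 329 of all 13766 genes. Myocd, the SRF coactivator gene of heart and smooth muscle, had 17.5, 19.2 and 22.1 CPM in ISO replicates 1 to 3, against 65.0, 60.4 and 47.9 CPM in saline, or −1.56 ± 0.15 on the log2 scale (SE; adjusted p = 0.00748 by edgeR). Its groups lay far apart, and the call held without each library in turn. Srf, which encodes the serum response factor, had 71.7, 84.6 and 64.8 CPM in ISO, against 145, 116 and 125 CPM in saline (−0.81, edgeR adjusted p = 0.026), and Mef2a stood at −0.57 (edgeR adjusted p = 0.0276). Both lost the call without saline replicate 1, 2 or 3 or ISO replicate 1, where adjusted p lay between 0.0687 and 0.141, and Mef2a also without scaling. Gata4, whose protein reads GATA sites, was named after its values were seen and had 123 ± 11.1 CPM in ISO and 146 ± 6.72 CPM in saline (−0.25, edgeR adjusted p = 0.214).

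Around the peptide genes on chromosome 5, 9 of 14 genes found were tested and 1 was called, with a median of 0.12. EdgeR called 2.97% of all tested genes. Clcn6, the next gene after Nppa in the RefSeq order, was chosen after its values were seen. It had 22.7 ± 3.80 CPM in ISO and 23.3 ± 1.45 CPM in saline (−0.04, edgeR adjusted p = 0.909). Agtrap, an angiotensin receptor-associated protein gene, was higher, with 21.2, 19.9 and 23.0 CPM in ISO replicates 1 to 3, against 13.8, 13.0 and 14.5 CPM in saline (0.63, edgeR adjusted p = 0.0385). Its call was lost without saline replicate 1, 2 or 3 or ISO replicate 1 or 3, where adjusted p lay between 0.0798 and 0.148.

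Among 18 genes of the loaded heart, 1 was higher and 2 were lower, with a median of 0.29, where edgeR called 2.97% of all tested genes. DESeq2 called 6 of the 18, against 10.6% of all genes with an adjusted p. Voom called 3, against 329 of all 13766 genes. Rcan1, the calcineurin regulator gene, stood at −1.34 (edgeR adjusted p = 0.0142), Actc1, the cardiac actin gene, at −1.18 (edgeR adjusted p = 0.0161), and Postn, the periostin gene, at 5.71 (edgeR adjusted p = 0.02). These calls were lost without saline replicate 1, 2 or 3 (adjusted p of 0.0541 to 0.115), and those of Actc1 and Postn also without ISO replicate 1 (0.08885 and 0.0524). Postn stood at 4.13 without ISO replicate 3 (edgeR adjusted p = 0.00109).

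**Figure D5:**
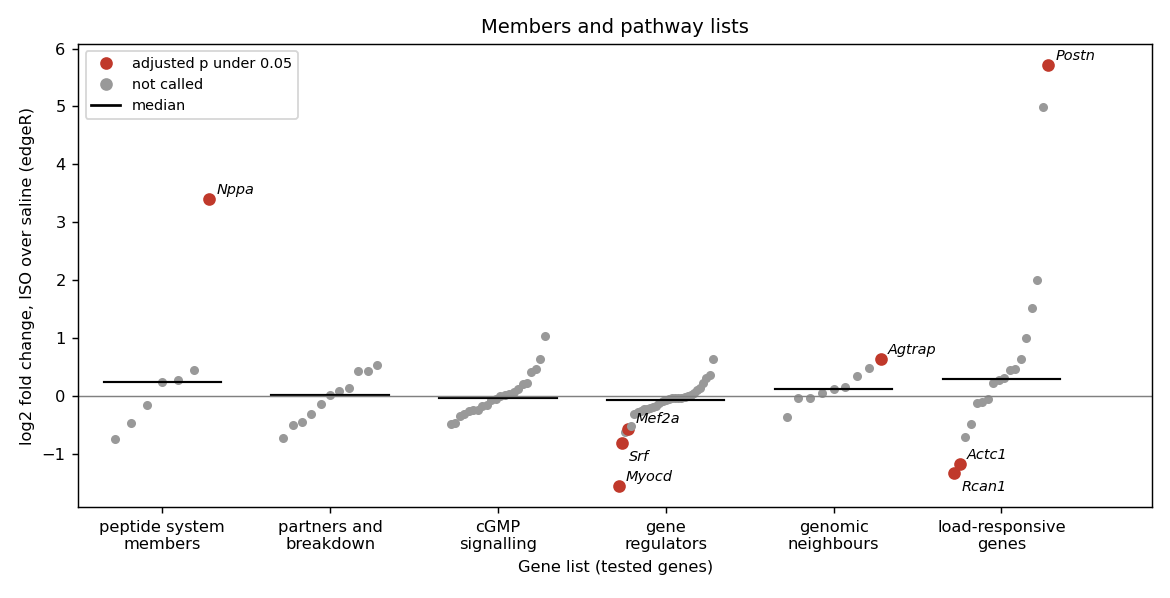
Log2 fold change of ISO over saline for the tested genes of each list, 1 point per gene, with genes called by edgeR in red and a black line at the median. Nppa stands at 3.40 among the 7 genes, and list medians lie between −0.07 and 0.29.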

How the data were processed

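The authors deposited raw counts per gene for 6 rat heart libraries. Per the series text, HISAT2 aligned the read pairs to a rat reference and featureCounts did the counting. Neither versions nor a strand setting is given in the labels. A mouse build appears in the submitters' processing notes, although the identifiers are rat. Without strand, overlapping genes cannot be told apart, which touches Corin, Furin and Npr1, each overlapped by at least 1 other RefSeq gene.

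Of 33889 rows, 1006 without a rat Ensembl identifier (0.981% to 1.32% of counts) were left out. A symbol on several rows went to the row with the highest sum. The other rows of that symbol, and rows without a symbol, kept their identifier as name. Differences were tested on all genes with edgeR 4.0.16 in R 4.3.3 (quasi-likelihood F test, TMM, default low-count filter, Benjamini-Hochberg adjustment, called at adjusted p under 0.05). Positive log2 fold changes mean higher in ISO, and the SE is the fold change over the square root of F. Log2 CPM used a prior count of 2, and ratios within a library a pseudocount of 0.5. DESeq2 1.42.0 and voom of limma 3.58.1 were alternatives, and the tests were tested on simulated data. Sequences are from RefSeq, GRCr8.

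The members and lists were chosen with earlier results of these data known. Beyond the 7 genes, the rule named up to 6 called genes per list, or else the 2 with most CPM, the 2 marker genes with most CPM per list, marker genes at least 10-fold higher in 1 library than in any other, and 4 nearest genes each for Nppa, Nppb and Npr3. 1 gene that the rule names is not reported here. P-values set the difference between the groups against the spread between these rats, as each test estimates it. Listed genes without a row were not analysed here. No batch is named in the labels.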

Additional observations from a re-analysis of the deposited data

How the results depend on the processing

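The number of genes called, 409 with all libraries, was 1405 by DESeq2, 1812 by the series' rule and 11 at an adjusted p under 0.01. Unscaled libraries gave 280 higher and 123 lower calls, against 203 and 206 with TMM, and the median of all genes moved to 0.13. Leaving out 1 library gave 12 (without saline replicate 3) to 838 (without ISO replicate 2). Called members numbered 2 by DESeq2 and by the series' rule, 0 at 0.01, and 0 to 2 with 1 library left out.

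Same-numbered libraries deviated from their group means with correlations of 0.09, −0.10 and 0.02, and not every library correlated best with its own number. With 3 libraries a group, such correlations cannot decide whether same-numbered libraries share more than the number. With the replicate number as a block, 28 genes were called, and Nppa was one of them at 3.70 (edgeR adjusted p = 0.0432). The block left 1 called regulator, 0 neighbours and 0 load-responsive genes.

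Nppa kept its direction in all 17 alternatives and lost its call in 4: at an adjusted p under 0.01 (3.40) and in 3 of the 6 fits without a library, whose values ran from 3.01 to 4.34. Nppb was called by the series' rule (−0.74) and without ISO replicate 2, with values from −1.09 to −0.45 over those 6 fits. Furin was called by DESeq2 (0.44). Npr3 ran from −0.54 to 0.53 with 1 library left out, the log2 ratio of Npr3 to Npr1 from −0.39 to 0.53 and that to Npr2 from −0.76 to 0.064. Corin, Npr1 and Npr2 kept direction and were not called in any of 17.

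Called storage, processing and breakdown genes numbered 1 without scaling, with the 1 CPM filter and by the series' rule, 3 by DESeq2 and 0 with any library left out. Cyclic GMP genes numbered 1 by DESeq2, 2 by the series' rule and 0 to 1 with a library left out. Regulators numbered 6 by DESeq2 and the series' rule, 1 at 0.01 and 1 to 4 with a library left out. Neighbours numbered 0 at 0.01 and 0 to 1 with a library left out. Load-responsive genes numbered 5 without a filter, 6 by DESeq2, 9 by the series' rule, 0 at 0.01 and 0 to 7 with a library left out. The cause of these differences was not tested. With 3 libraries a group, an exact test over libraries cannot go below p = 0.1. Keeping the rows without a rat Ensembl identifier, chosen after seeing the data, changed no call of the 7 genes.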

Other observations

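Of 12 ventricular cardiomyocyte markers 11 were tested, 1 was lower in ISO and none higher, with a median log2 fold change of −0.54 against 0.02 over all tested genes. Over all 13766 tested genes, edgeR called 206 lower. DESeq2 called 5 of the ventricular markers, against 10.6% of all genes with an adjusted p, and voom called 1. The most abundant were Myl3, with 4357, 5360 and 3462 CPM in ISO against 5794, 3976 and 5515 CPM in saline (−0.21, edgeR adjusted p = 0.606), and Pln, the phospholamban gene, at −0.45 (edgeR adjusted p = 0.147). Fhl2, a LIM domain gene of heart muscle, had 670, 795 and 738 CPM in ISO replicates 1 to 3, against 1842, 1263 and 1474 CPM in saline, or −1.06 ± 0.17 on the log2 scale (SE; adjusted p = 0.0207 by edgeR). Of the atrial set, Kcnj5, a channel gene also expressed in ventricles, was the called member, with 52.0, 60.7 and 46.0 CPM in ISO, against 31.3, 31.6 and 33.5 CPM in saline (0.72, edgeR adjusted p = 0.0276). Both genes were named after their values were seen. Kcnj5 was higher in all 3 ISO libraries than in any saline library.

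Of 10 macrophage markers 5 were higher in ISO, with Lyz2, the lysozyme gene, at 305, 338 and 1030 CPM in ISO replicates 1 to 3, against 84.6, 125 and 97.6 CPM in saline (2.44, edgeR adjusted p = 0.0334). Of 11 fibroblast markers 2 were higher and of 9 activated fibroblast markers 5. Beside these and the macrophage markers, edgeR called 1.47% of all tested genes higher. Of 11 endothelial and 10 smooth muscle and pericyte markers tested, edgeR called none. At an unadjusted edgeR p under 0.05 stood 1 and 3, where 22.9% of all tested genes did. DESeq2 called 1 and 1, against 10.6% of all genes with an adjusted p, and voom 0 and 0. The calls of Fhl2, Kcnj5 and Lyz2 were lost without saline replicate 1, 2 or 3 or ISO replicate 1, where adjusted p by edgeR lay between 0.0527 (Fhl2) and 0.156 (Lyz2). Without ISO replicate 3, Lyz2 stood at 1.65 (edgeR adjusted p = 0.00924).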
